A study of Rattus norvegicus with 12 samples.

Results

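The genes described here are 7 symbols that mark the granule neurons of the dentate gyrus: Prox1, C1ql2, C1ql3, Calb1, Dsp, Neurod1 and Neurod2. They were chosen by name, as known granule neuron genes, from the gene symbols counted in 12 rat libraries. Of the 7, 6 were matched to a row among 17172 genes, and all 6 passed the filter on low counts, which kept 11750 genes. Dsp, which encodes the desmosome protein desmoplakin, was matched to no row and was not analysed here.

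Ventral dentate gyrus was taken from male rats labelled Sprague-Dawley, of the Flinders Sensitive Line (FSL), a line used as a model of depression, and of its control line, the Flinders Resistant Line (FRL). Each of 4 groups held 3 libraries: FRL rats and FSL rats that drank tap water (vehicle), and FSL rats that drank L-acetyl-carnitine (LAC) and were classed either as non-responders or as responders. LAC was dissolved at 0.3% (w/v), a dose of about 210 mg/kg each day, and all groups were treated for 7 days. The sources used here do not give the age of the animals, how many animals make a library, or the measure behind the 2 response classes. Because untreated FSL rats carry no response class, differences that preceded treatment and effects of LAC cannot be told apart.

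Granule neurons are the principal cells of the dentate gyrus. They receive the perforant path from the entorhinal cortex and send their axons, the mossy fibres, to CA3. Prox1 is a homeodomain transcription factor that sets and keeps granule neuron identity against that of CA3 pyramidal neurons. Neurod1 and Neurod2 are basic helix-loop-helix transcription factors of neuronal differentiation, and Neurod1 is needed for the formation of the granule layer. C1ql2 and C1ql3 are secreted C1q-like proteins of mossy fibre synapses, where they bind kainate receptors and neurexins, and C1ql3 also binds the adhesion receptor Adgrb3. Calb1 encodes calbindin, the calcium buffer of mature granule neurons, which CA1 pyramidal neurons, some interneurons and other brain regions make as well.

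The promoters of both C1q-like genes and both NeuroD genes are shown because each pair is closely related, and because in these libraries the C1q-like pair parted while the NeuroD pair moved together. Each sequence is the 250 bases before the RefSeq start on the rat assembly GRCr8, 5′ to 3′ on the strand of the gene, and capitals mark the E-box CANNTG, the site type that NeuroD factors bind. Motifs were searched on both strands, and CAGCTG and CAGATG are forms of this E-box. The table held 5 of the 7 genes, with no entry for Prox1 or Calb1. The windows are chr13:34023652-34023901 (+) for C1ql2, chr17:81038245-81038494 (-) for C1ql3, chr3:84770455-84770704 (-) for Neurod1 and chr10:83824278-83824527 (-) for Neurod2.
C1ql2: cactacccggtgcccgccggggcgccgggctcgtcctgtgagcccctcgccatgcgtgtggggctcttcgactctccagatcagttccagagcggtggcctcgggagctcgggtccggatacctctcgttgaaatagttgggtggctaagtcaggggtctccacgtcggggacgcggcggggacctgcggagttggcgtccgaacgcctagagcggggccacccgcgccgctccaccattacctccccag
C1ql3: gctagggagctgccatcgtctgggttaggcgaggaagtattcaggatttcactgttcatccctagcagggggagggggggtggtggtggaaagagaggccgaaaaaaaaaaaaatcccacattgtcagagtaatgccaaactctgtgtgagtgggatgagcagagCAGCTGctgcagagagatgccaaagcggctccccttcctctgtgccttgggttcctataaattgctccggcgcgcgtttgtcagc
Neurod1: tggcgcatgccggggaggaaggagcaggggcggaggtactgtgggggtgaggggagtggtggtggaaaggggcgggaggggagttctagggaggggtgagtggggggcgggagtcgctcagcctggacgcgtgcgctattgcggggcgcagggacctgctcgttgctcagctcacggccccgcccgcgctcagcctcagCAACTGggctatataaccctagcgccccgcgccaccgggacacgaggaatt
Neurod2: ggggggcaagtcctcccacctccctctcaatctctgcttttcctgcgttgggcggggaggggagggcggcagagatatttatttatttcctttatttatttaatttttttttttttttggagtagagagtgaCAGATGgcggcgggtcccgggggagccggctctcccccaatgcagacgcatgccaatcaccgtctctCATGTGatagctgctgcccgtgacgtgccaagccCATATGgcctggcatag
The E-box stood 0 times in the C1ql2 window, 1 time in those of C1ql3 and Neurod1, and 3 times in that of Neurod2. A CANNTG is found in 65.5% of 33469 rat windows of the same length, so holding it is common. The form CAGCTG, which 12% of windows hold, stood in the C1ql3 window, and the form CAGATG, which 14.0% hold on either strand, in the Neurod2 window. A TATAAA, present in 12.9%, stood in the C1ql3 window, and GGGCGG, present in 30.5%, stood 4 times in the Neurod1 window and 2 times in that of Neurod2 on either strand. The window of C1ql2 was 68.8% G or C and that of C1ql3 54.0%, against a median of 51.2% over all windows. A match is a string of letters and no record of binding.

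Counts in genes ranged from 5905387 to 8137618 per library. Levels are given in CPM, the usual per-library scaling of read counts to a fixed total, on library sizes scaled by TMM, a method that evens out differences in composition. A count of 3, taken as the floor for counting error alone, corresponds to 0.368 to 0.511 CPM. Markers of neighbouring tissue also varied. The summed meningeal list was 171 to 361 CPM in FRL vehicle, 256 to 2846 CPM in FSL vehicle, 355 to 626 CPM in non-responders and 95.9 to 251 CPM in responders. The choroid plexus list had its highest sums in FSL vehicle 1 (4681 CPM) and non-responder 1 (7803 CPM), against at most 228 CPM in FRL vehicle and responders. The part of these tissues in the group comparisons of the members was not tested. The libraries of a group are called biological replicates in the design text. These are bulk samples, in which fewer granule neurons and less RNA per granule neuron cannot be told apart.

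Prox1 and C1ql2 fell to between 7.59% and 12.8% of their median level in 2 of the 12 libraries, and these 2 libraries lay in different groups. Prox1 stood at 105, 10.4 and 74.8 CPM in FRL vehicle 1, 2 and 3, at 129, 51.6 and 69.4 CPM in FSL vehicle, at 83.9, 79.1 and 98.0 CPM in non-responders and at 9.19, 89.1 and 118 CPM in responders. FRL vehicle 2 and responder 1 were thus far below the third lowest library, FSL vehicle 2, while the other 10 libraries spanned 2.5-fold. In counts, Prox1 had 78 reads in FRL vehicle 2 and 75 in responder 1, against at least 400 in each of the others.

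C1ql2 stood at 59.1, 4.53 and 40.2 CPM in FRL vehicle 1, 2 and 3, at 53.1, 29.8 and 33.7 CPM in FSL vehicle, at 54.4, 44.7 and 45.1 CPM in non-responders and at 3.31, 42.5 and 55.6 CPM in responders. The lowest libraries were again responder 1 (27 reads) and FRL vehicle 2 (34 reads), at 7.59% and 10.4% of the median of the 12 libraries, and the other 10 spanned 1.98-fold. The same libraries held 11.3% and 12.8% of the median level of Prox1. The SD of log2 CPM over the 12 libraries was 1.26 for Prox1 and 1.37 for C1ql2, higher than in 98.8% and 99.1% of the tested genes.

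C1ql3, the close relative of C1ql2, stayed far nearer its median. It stood at 103, 60.0 and 74.6 CPM in FRL vehicle 1, 2 and 3, at 112, 83.5 and 58.7 CPM in FSL vehicle, at 76.0, 69.6 and 76.7 CPM in non-responders and at 93.2, 102 and 104 CPM in responders. Its whole range was 1.90-fold. Responder 1, the library lowest in C1ql2, had 116% of the median level of C1ql3, and FRL vehicle 2 had 74.9%, second lowest after FSL vehicle 3.

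Calb1 was also kept in both libraries. It stood at 133, 120 and 109 CPM in FRL vehicle 1, 2 and 3, at 136, 204 and 119 CPM in FSL vehicle, at 135, 89.4 and 98.1 CPM in non-responders and at 192, 109 and 148 CPM in responders. Responder 1 had the second highest level and FRL vehicle 2 lay at 95.1% of the median, while the lowest libraries were non-responders 2 and 3.

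The NeuroD genes were lower in these libraries by a smaller step. Neurod1 stood at 22.1, 9.60 and 12.8 CPM in FRL vehicle 1, 2 and 3, at 18.3, 24.0 and 12.9 CPM in FSL vehicle, at 21.9, 18.1 and 17.7 CPM in non-responders and at 12.3, 14.5 and 25.2 CPM in responders. FRL vehicle 2 and responder 1 were its lowest libraries, at 53.7% and 68.6% of the median, with FRL vehicle 3 and FSL vehicle 3 close above them. Neurod2 stood at 55.3, 30.3 and 39.4 CPM in FRL vehicle 1, 2 and 3, at 40.7, 37.7 and 29.3 CPM in FSL vehicle, at 44.9, 32.6 and 46.5 CPM in non-responders and at 24.6, 40.9 and 57.9 CPM in responders. Responder 1 was lowest at 61.5% of the median, followed by FSL vehicle 3 and FRL vehicle 2.

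**Figure D1:**
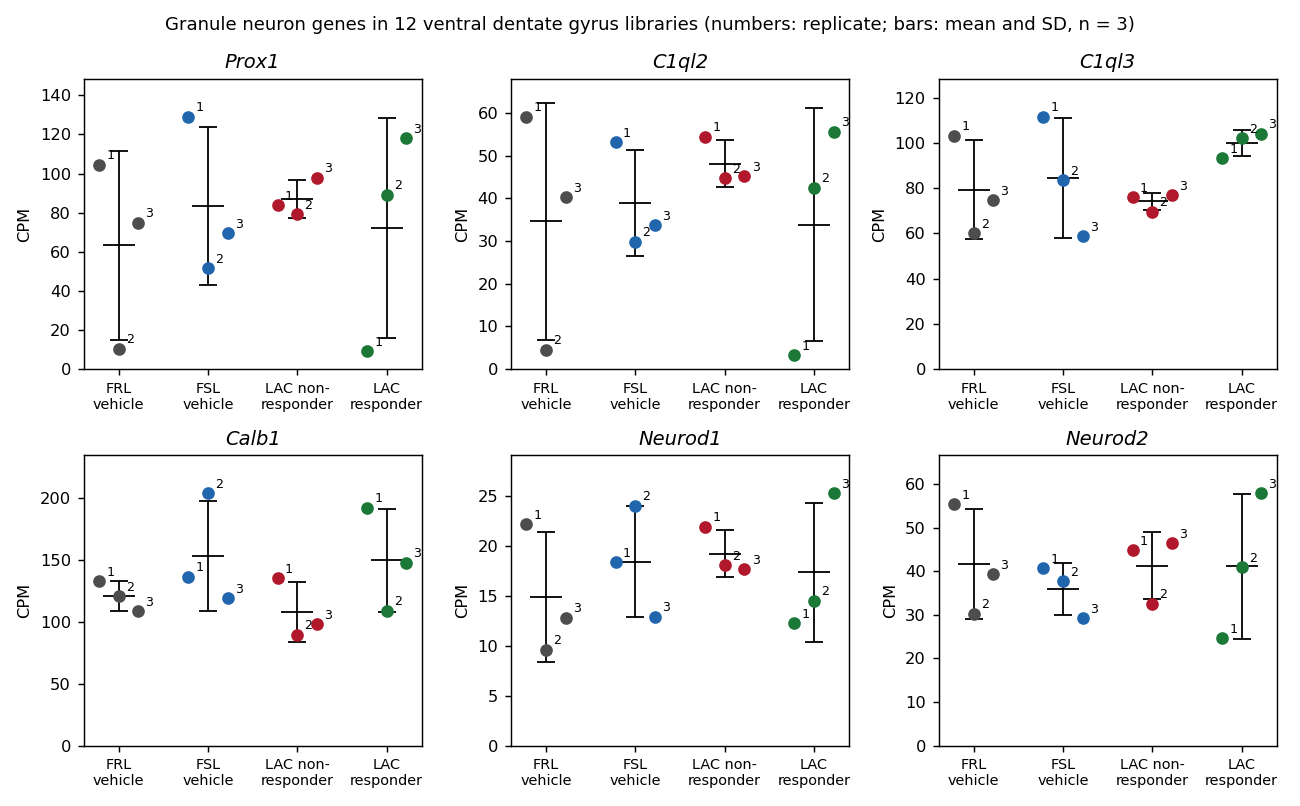
CPM (vertical axis, from 0) of the 6 genes in each library by group (horizontal axis); points are libraries with their replicate number, and bars show the group mean and SD (n = 3). FRL vehicle 2 and responder 1 sit at 10.4 and 9.19 CPM for Prox1 and at 4.53 and 3.31 CPM for C1ql2, far below their groups, while their C1ql3 and Calb1 points lie within the range of the other libraries.

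The ratio of 2 genes within a library does not depend on its depth or scaling, and its change across libraries shows which genes went together. The ratio of Prox1 to C1ql2 counts stayed between 1.54 and 2.78 in all 12 libraries, with 2.29 in FRL vehicle 2 and 2.78 in responder 1. The ratio of Neurod2 to Neurod1 stayed between 1.57 and 3.15. The ratio of C1ql3 to C1ql2 lay between 1.40 and 2.80 in 10 libraries, but was 13.2 in FRL vehicle 2 and 28.2 in responder 1. Calb1 to Prox1 went from 1.0 to 3.94 in the 10 libraries to 11.6 and 20.9 in the same pair.

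FSL vehicle 2 showed a weaker parting of Prox1 and C1ql2 from C1ql3 and Calb1. It had the third lowest Prox1 and C1ql2, at 63.3% and 68.3% of the median. Its Calb1 was the highest of all libraries, and its C1ql3 to C1ql2 ratio the highest of the 10. Its Neurod1 was not low, at 134% of the median, and its Neurod2 stood at 94.1%.

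**Figure D2:**
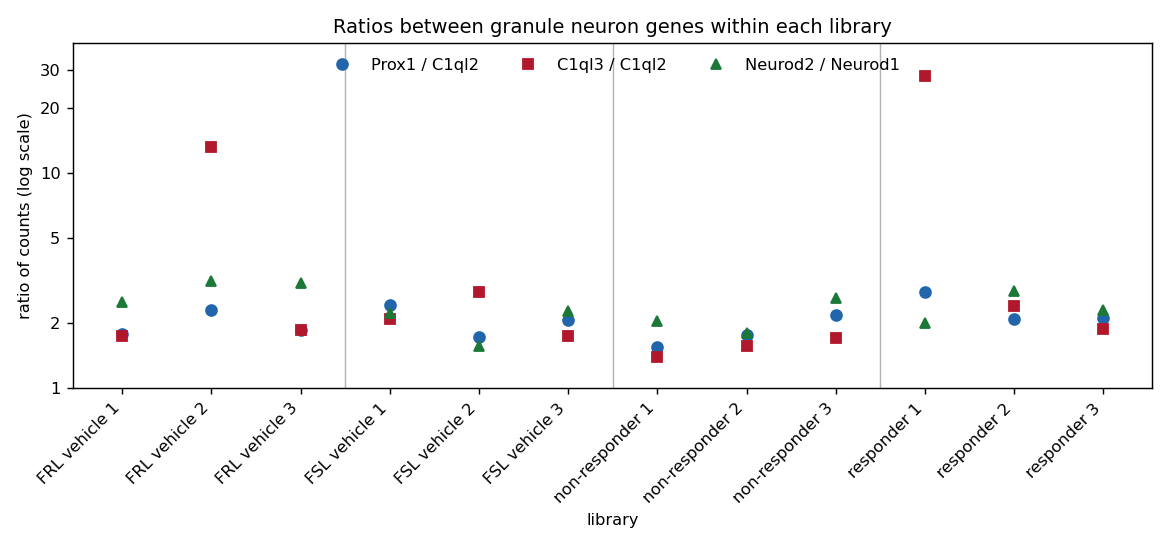
Ratio of read counts (vertical axis, log scale) for 3 gene pairs in each of the 12 libraries (horizontal axis), with grey lines between the groups. Prox1 / C1ql2 and Neurod2 / Neurod1 stay within 1.54 to 3.15 throughout, whereas C1ql3 / C1ql2 reaches 13.2 in FRL vehicle 2 and 28.2 in responder 1.

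The likeness of profiles was measured as the root-mean-square difference of log2 CPM over the 12 libraries after each gene was centred on its mean. Prox1 and C1ql2 were the closest pair of members (0.21), followed by Neurod1 and Neurod2 (0.29). Calb1 was farthest from both Prox1 (1.37) and C1ql2 (1.47). With FRL vehicle 2 and responder 1 set aside, Prox1 and C1ql2 still differed by only 0.19, and by 0.51 to 0.78 from every other member. Each gene was still centred on its mean over all 12 libraries, so FRL vehicle 2 and responder 1 still shift these values. Whether Prox1 and C1ql2 part from the rest among the other 10 libraries alone was not tested.

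Other granule neuron genes, from a list that holds none of the 7, were partly low in the same libraries. Of 17 listed genes 11 had a row and 9 passed the filter, and in 4 of these 9, Trpc6, Rfx3, Ablim3 and Pdyn, FRL vehicle 2 and responder 1 were the 2 lowest libraries. Over all tested genes this held for 389 of 11750 (3.31%), and among the 6 members for Prox1, C1ql2 and Neurod1. The 2 libraries were singled out by their low Prox1 and C1ql2, so for these 2 members it held by that choice. Pdyn, which encodes the dynorphin precursor of mossy fibres, was low in FRL vehicle 2 (21.2 CPM) and responder 1 (12.9 CPM), against 39.6 to 82.9 CPM elsewhere. Rfx3, a transcription factor, had 41.6 and 79.4 CPM against 97.9 to 158 CPM, and Tiam1, a Rac activator of dendritic spines, 167 and 264 CPM against 217 to 367 CPM. Trpc6, a cation channel, stood at 16.5 CPM in responder 1 but at 42.3 CPM in FRL vehicle 2, next to 45.2 to 61.7 CPM elsewhere.

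The 2 libraries were not alike in every granule gene. Plk5, named here after its values were seen, had 2.8 CPM in FRL vehicle 2, the lowest level, and 22.9 CPM in responder 1, above the 8.0 to 20.2 CPM of 8 other libraries. The summed list was lowest in FRL vehicle 2 (382 CPM) and stood at 546 CPM in responder 1, against a median of 683 CPM.

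Markers of other tissue moved with the low libraries in different ways. The neuron list, which holds general and excitatory neuron genes such as Map2, Snap25, Slc17a7 and Syt1, was close to its median in FRL vehicle 2 (9688 CPM) and responder 1 (9150 CPM), with a median of 9509 CPM. FRL vehicle 2 had the highest sums of CA1 markers (911 CPM, median 623), of cortical and amygdalar markers (367 CPM, median 249) and of interneuron markers (1330 CPM, median 1018). In it the CA1 marker Mpped1 was at its highest (326 CPM). Responder 1 instead had the lowest CA1 (494 CPM) and cortical (166 CPM) sums and the highest thalamic and hypothalamic sum (473 CPM, median 104). The CA1 sum did not single out these libraries: responder 3, with the second highest Prox1, had 496 CPM, and FSL vehicle 2 (852 CPM) and FRL vehicle 3 (840 CPM) came near FRL vehicle 2. In responder 1 the thalamic genes Slc17a6, a vesicular glutamate transporter, and Tcf7l2, a transcription factor, reached 274 and 156 CPM. Pmch, a hypothalamic peptide precursor, was also highest there (9.43 CPM). The other 3 tested markers were not raised: Prkcd, a protein kinase C, stood at 18 CPM, the transcription factor Zic1 at 6.62 CPM and Rgs16, a regulator of G protein signalling, at 5.27 CPM. These 3 were highest in FSL vehicle 3 (65.7, 34.0 and 13.6 CPM). Of the 10 thalamic and hypothalamic genes 6 passed the filter, and the hypothalamic peptide genes Hcrt, Oxt, Avp and Trh did not. The mossy cell list was also highest in responder 1 (197 CPM, median 80.0), mainly through Calb2, the calcium buffer calretinin, at 100.0 CPM against 12.4 to 21.1 CPM, a gene that thalamic and midline neurons make too. The part of these tissues in the low Prox1 and C1ql2 values was not tested.

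**Figure D3:**
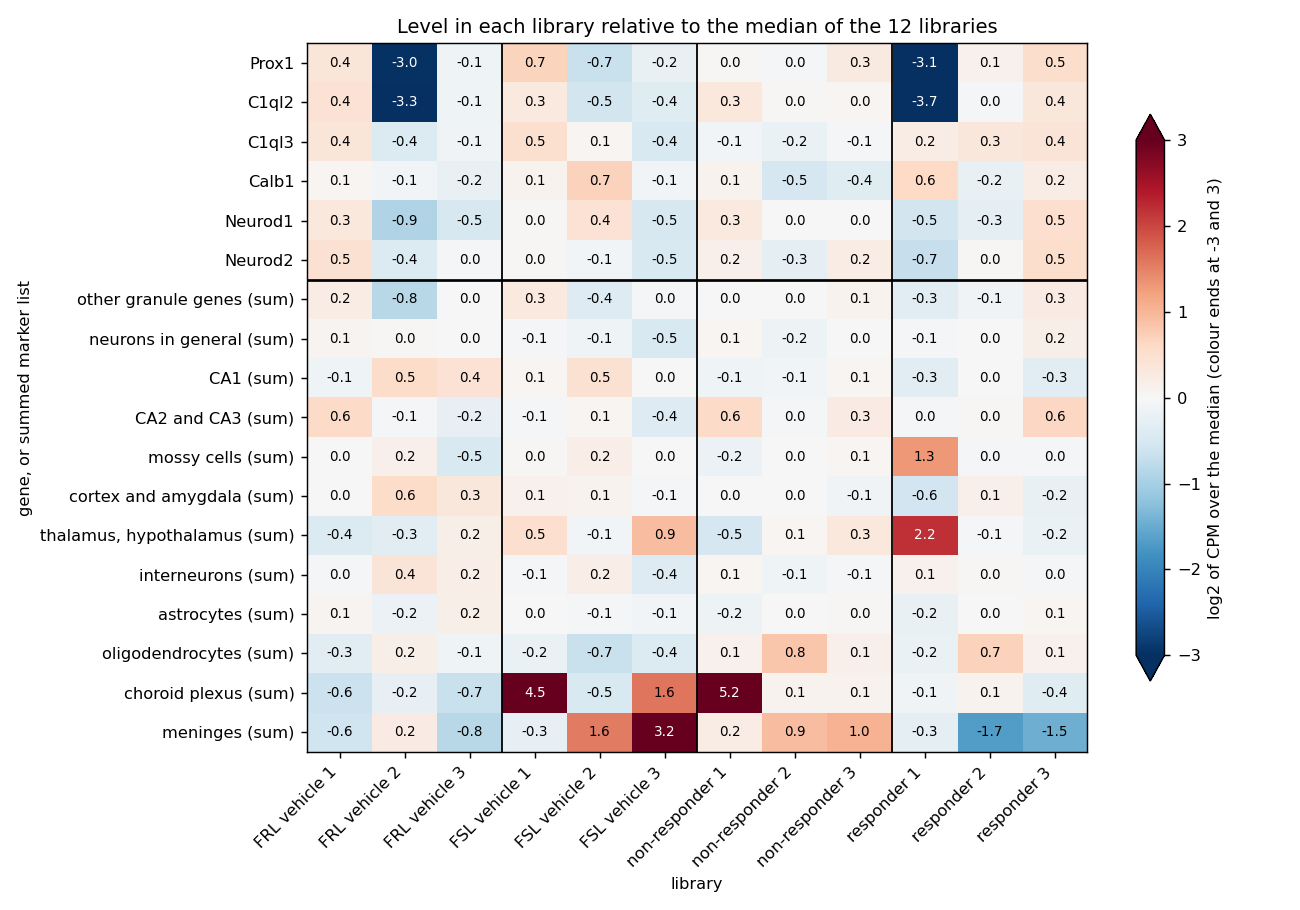
Level of each of the 6 genes (rows above the line) and of each summed marker list (rows below it) in each of the 12 libraries (columns), as log2 of CPM over the median of the 12; numbers give the value, and colour ends at -3 and 3. Prox1 and C1ql2 are deep blue only in FRL vehicle 2 and responder 1, the thalamic and hypothalamic sum is highest in responder 1, and the CA1 and cortical sums are highest in FRL vehicle 2.

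Group means of Prox1 ran from 63.3 ± 48.2 CPM in FRL vehicle over 72.1 ± 56.4 in responders and 83.4 ± 40.5 in FSL vehicle to 87.0 ± 9.78 in non-responders (mean ± SD, n = 3 each). C1ql2 ran from 33.8 ± 27.2 CPM in responders over 34.6 ± 27.7 in FRL vehicle and 38.9 ± 12.5 in FSL vehicle to 48.1 ± 5.47 in non-responders. The SD came to 76.1% and 78.2% of the mean of Prox1 in the groups that hold a low library, FRL vehicle and responders, and to 11.2% in non-responders. For both genes all groups overlapped, so no neighbours in this order were separated by more than their spread.

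C1ql3 ran from 74.1 ± 3.92 CPM in non-responders over 79.3 ± 22 in FRL vehicle and 84.5 ± 26.4 in FSL vehicle to 99.8 ± 5.75 in responders. Calb1 ran from 108 ± 24.4 CPM in non-responders over 121 ± 12.1 in FRL vehicle and 149 ± 41.6 in responders to 153 ± 44.7 in FSL vehicle. Neurod1 ran from 14.8 ± 6.51 CPM in FRL vehicle over 17.3 ± 6.94 in responders and 18.4 ± 5.56 in FSL vehicle to 19.2 ± 2.34 in non-responders. Neurod2 ran from 35.9 ± 5.94 CPM in FSL vehicle over 41.1 ± 16.6 in responders and 41.3 ± 7.61 in non-responders to 41.6 ± 12.7 in FRL vehicle. Over the 4 comparisons made, the only member whose groups did not overlap was C1ql3, between responders and non-responders, where 11.3% of all genes showed this.

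Without treatment, the question was what sets the FSL line apart from its control. None of the 6 genes passed an adjusted p of 0.05 between FSL vehicle and FRL vehicle (edgeR quasi-likelihood, Benjamini-Hochberg over all genes; adjusted p 0.567 to 0.954), where 0.0681% of all tested genes did. By the same test 0 of 6 had an unadjusted p under 0.05, against 13.9% of all genes, and DESeq2 and limma-voom also called 0. Log2 fold changes were 0.39 ± 0.82 (SE) for Prox1, 0.16 ± 0.84 for C1ql2, 0.09 ± 0.22 for C1ql3, 0.34 ± 0.24 for Calb1, 0.31 ± 0.35 for Neurod1 and -0.22 ± 0.30 for Neurod2, with a median of 0.24 against -0.0083 over all genes. Of the 6 values 5 lay above 0, against 48.4% of all genes. Without FRL vehicle 2 and responder 1 the values of Prox1 (-0.11), C1ql2 (-0.36) and C1ql3 (-0.076) changed sign, Neurod1 came to 0.069 and Neurod2 to -0.40. The 95% interval of Prox1 ran from -1.41 to 2.20 with all libraries, so a change of 2-fold in either direction was within it. In none of the 6 did the groups part, which 13.8% of all genes showed.

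For responders the reference was FSL vehicle, the same libraries as in the comparison above. Again 0 of the 6 genes passed (edgeR quasi-likelihood; adjusted p 0.645 to 0.960), as did 0% of all genes. None had an unadjusted p under 0.05, against 13.8% of all genes, and DESeq2 and limma-voom called 0 members. C1ql3 had a log2 fold change of 0.24 ± 0.22, Neurod2 0.20 ± 0.30, Calb1 -0.035 ± 0.24, Neurod1 -0.092 ± 0.34, C1ql2 -0.20 ± 0.84 and Prox1 -0.21 ± 0.81, so 2 of 6 lay above 0, against 52% of all genes. Without FRL vehicle 2 and responder 1 Prox1 came to 0.32, C1ql2 to 0.34, Neurod1 to 0.11, Neurod2 to 0.46 and Calb1 to -0.26, and none passed. Calb1 was 0.23 without FSL vehicle 2, where it is highest. No member had groups that did not overlap, against 12.5% of all genes.

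Non-responders, which drank LAC as well, were set against the same FSL vehicle libraries. None of the 6 passed (edgeR quasi-likelihood; adjusted p of 0.976 or more), as did 0% of all genes, and 0 had an unadjusted p under 0.05, against 4.21%. Calb1 had the smallest unadjusted edgeR p (0.0604), with a log2 fold change of -0.51 ± 0.24 and a 95% interval from -1.04 to 0.03. In DESeq2 its unadjusted p was 0.0373 and its adjusted p 0.9996. The groups overlapped, since non-responder 1 (135 CPM) lay above FSL vehicle 3 (119 CPM). Between libraries of the same replicate number, which no label pairs, Calb1 was lower in all 3 non-responders and C1ql2 was higher in all 3. Non-responder 1 and FSL vehicle 1 were nearly level, at 135 and 136 CPM for Calb1 and 54.4 and 53.1 CPM for C1ql2. Without FSL vehicle 2, the library highest in Calb1, the log2 fold change of Calb1 was -0.24. C1ql2 had 0.31 ± 0.83, Neurod2 0.20 ± 0.30, Prox1 0.066 ± 0.81, Neurod1 0.061 ± 0.34 and C1ql3 -0.19 ± 0.22, so 4 of 6 lay above 0, against 48.9% of all genes. Neither library low in Prox1 and C1ql2 belongs to these groups. Groups did not overlap in 7.8% of all genes and in 0 members.

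The LAC groups were also compared with each other. C1ql3 was 93.2 to 104 CPM in responders and 69.6 to 76.7 CPM in non-responders, with no overlap, as in 11.3% of all genes. Its log2 fold change was 0.43 ± 0.22 (95% interval -0.059 to 0.92), and it did not pass over all genes (edgeR quasi-likelihood, adjusted p = 0.992). Calb1 had 0.47 ± 0.24, and 0.25 without responder 1, where Calb1 is high. Prox1 had -0.27 ± 0.81, C1ql2 -0.51 ± 0.83, Neurod1 -0.15 ± 0.34 and Neurod2 -0.0076 ± 0.30, and without FRL vehicle 2 and responder 1 they came to 0.25, 0.031, 0.049 and 0.26. With all libraries 2 of 6 lay above 0, against 50.3% of all genes. None of the 6 passed, as did 0% of all genes, with 0 members and 3.14% of all genes at an unadjusted p under 0.05, and 0 members called by DESeq2 or limma-voom.

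**Figure D4:**
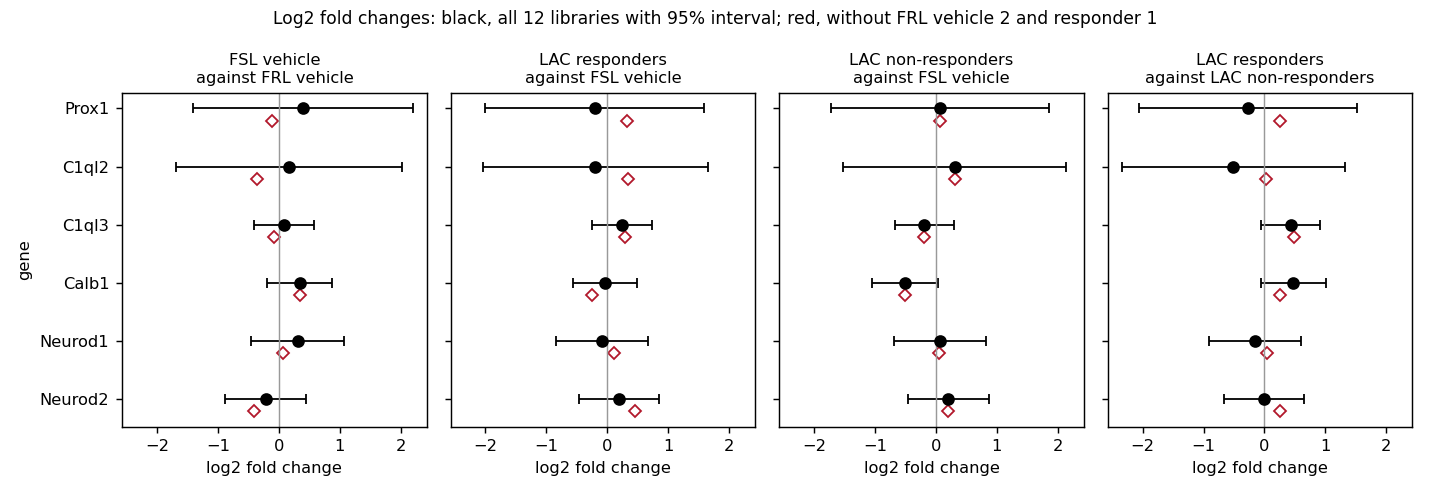
Log2 fold change (horizontal axis) of the 6 genes (vertical axis) in 4 comparisons: black points with 95% intervals from all 12 libraries, red diamonds without FRL vehicle 2 and responder 1. Every black interval includes 0, those of Prox1 and C1ql2 are the widest, and their diamonds lie on the other side of 0 in 3 of the 4 panels.

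The 5 lists of related genes (other granule genes, granule lineage, C1q-like partners, calcium-binding proteins and desmosome) gave 0 calls in each of the 4 comparisons (edgeR quasi-likelihood, adjusted p under 0.05). At an unadjusted p under 0.05 the highest count was 4 of 11 calcium-binding genes in responders against FSL vehicle, against 13.8% of all genes. Among these 4 were Calb2, Pvalb and Cabp1. Calb2 was high only in responder 1 (100.0 CPM). Responders 2 and 3 had 16.4 and 17.4 CPM of it, within the 12.5 to 21.1 CPM of FSL vehicle. The same list had 2 of 11 in FSL against FRL vehicle (13.9% of all genes), 1 of 11 in non-responders against FSL vehicle (4.21%) and 2 of 11 in responders against non-responders (3.14%). Among 18 tested genes of the granule lineage, medians of the log2 fold changes ran from -0.11 in responders against non-responders to 0.012 in FSL against FRL vehicle. In this list Zbtb20, Bcl11b and Bhlhe22 had their 2 lowest levels in FRL vehicle 2 and responder 1. They were 3 of 18 genes, against 3.31% of all tested genes. Zbtb20, a zinc finger transcription factor of hippocampal neurons, had 151 and 146 CPM there, against 214 to 357 CPM elsewhere. Dcx, doublecortin of immature neurons, had its 2 highest levels in the same libraries (84.1 and 89.1 CPM, at most 76.1 CPM elsewhere). Other genes of the list did not go with Dcx in both libraries. Sox11 was highest in responder 1 (14.1 CPM) but stood at 9.2 CPM in FRL vehicle 2. Tbr1 was highest in FRL vehicle 2 (54.9 CPM) but stood at 27.9 CPM in responder 1. Sox4 and Igfbpl1 had 28.1 and 3.8 CPM in responder 1, and 23.3 and 0.80 CPM in FRL vehicle 2. Neurod6, a relative of the NeuroD members found in pyramidal neurons, was lowest in responder 1 at 49.99 CPM but stood at 150 CPM in FRL vehicle 2, within its range of 93.2 to 204 CPM elsewhere.

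The synaptic partners of the C1q-like ligands were steadier. Of 14 listed genes 12 were tested, and their sum ran only from 2008 to 2402 CPM. The presynaptic adhesion genes Nrxn3 and Nrxn2 stood at 238 to 353 and 142 to 261 CPM, and the receptor gene Adgrb3, counted under its older symbol Bai3, at 289 to 384 CPM. The median log2 fold change was -0.17 in FSL against FRL vehicle, with 2 of 12 above 0, and 0.053, 0.0042 and 0.034 in the other 3 comparisons. The kainate receptor gene Grik4, which CA3 neurons also make, was lowest in responder 1 (25.7 CPM), with FSL vehicle 2 (34.2 CPM) and FRL vehicle 2 (35.5 CPM) next.

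The other calcium-binding proteins, among them the glial gene S100b, had 10 of 11 values below 0 in FSL against FRL vehicle (median -0.24). In responders against FSL vehicle 11 of 11 lay above 0 (median 0.23). Over all genes 48.4% and 52% lay above 0 in these comparisons. The neuron list moved in the same way, with 0 of 11 and 11 of 11 above 0 (medians -0.22 and 0.21). So did the interneuron list, with 0 of 8 and 7 of 8 above 0. Both comparisons share the FSL vehicle libraries. FSL vehicle 3 was lowest in the calcium-binding list (5334 CPM, others 6850 to 8029 CPM) and in the neuron list (6939 CPM), with the highest meningeal sum. The part of that library was not tested. Of 12 desmosome genes, the partners of desmoplakin, 6 were tested. Jup, plakoglobin, stood at 37.4 to 74.6 CPM, Pkp2 at 10.5 to 29.7 CPM, Ppl at 1.5 to 21.1 CPM with its lowest level in responder 1, and Pkp1 at 2.2 to 4.6 CPM.

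The genes whose profile over the 12 libraries was most like the mean of the 6 members were Smpdl3b, Kctd4, Sema5a, Nr3c2, Ccdc134, Tle1, Bhlhe22, Ptpre, Lyst and Lmo2, at differences of 0.10 to 0.21 (median 0.56 over the 10172 genes compared). Nr3c2 encodes the mineralocorticoid receptor, which is abundant in hippocampal neurons, and was lowest in FRL vehicle 2 (88.8 CPM) and responder 1 (99.2 CPM), against at least 140 CPM elsewhere. Sema5a, an axon guidance protein, had 188 and 176 CPM there and at least 280 CPM elsewhere. Kctd4 had 55.9 and 77.3 CPM against at least 107 CPM. Closest to the reversed profile were Rasl11b, Pcdh11x, Gpr52, Mctp2, LOC300308, St6gal2, Drd1, Fnbp1l, Fos and Dpp10, at 0.25 to 0.28. Drd1, a dopamine receptor, had 23.2 and 30.5 CPM in FRL vehicle 2 and responder 1, and Fos, an immediate early gene, 64.7 and 54.9 CPM, with means of 16.8 and 32.3 CPM over all libraries. Prox1 and C1ql2 have the largest swings of the 6 and so weigh most in the mean of the members.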

How the data were processed

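Total RNA from about 130 mg of ventral dentate gyrus was sequenced as 100 bp single reads after ribosomal RNA removal, per the labels' protocols. The deposited files hold raw read counts per gene symbol for each library, not normalized by the authors. Per the submitters' processing notes, HTSeq 0.6.1, TopHat2 2.0.9, Trimmomatic 0.33 and FastQC 0.11.3 were used with the build rn5, and edgeR 3.12.0 is named as well. The sources used here do not give the annotation or the strand setting, so reads of antisense or overlapping genes may be mixed. Reads with several alignments (24.3% to 28.4%) lie outside the genes, as do 47.7% to 52.7% with no feature. These lines were left out.

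Counts were fitted with edgeR 4.0.16 (R 4.3.3): TMM, the default filter by group, quasi-likelihood with robust estimates, a mean for each of the 4 groups from all 12 libraries, two-sided tests, Benjamini-Hochberg adjustment and a threshold of 0.05. The code was tested on simulated data. Log2 CPM had a prior count of 2. DESeq2 1.42.0, limma-voom (limma 3.58.1), other scaling, no filter, fits of the compared groups, a covariate of other granule genes, a replicate block and left-out libraries were alternatives. The members, lists and the choice to leave out FRL vehicle 2 and responder 1 were made with earlier results of these data known. Named genes were all members, the 4 genes of highest mean CPM in a list, and the 10 of most like or most opposite profile with a mean of at least 5 CPM, while other names were chosen after their values were seen. Some genes that this rule names are not reported here. Deviations from the group mean were correlated across genes between libraries of the same replicate number. Between FSL vehicle and non-responders all values lay above 0 (0.581, 0.212 and 0.426), unlike in the other 3 comparisons. The rule used here took this as a pairing, although no label names one. The largest value joins FSL vehicle 1 and non-responder 1, which had the highest choroid plexus sums (4681 and 7803 CPM). The part of that tissue in the correlation was not tested. RefSeq promoters came from GRCr8, and no coordinates of rn5 were used.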

Additional observations from a re-analysis of the deposited data

Results flagged for a closer look

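C1ql3 lay on opposite sides of the FSL vehicle mean in the LAC groups, and neither group passed against FSL vehicle. All 3 responder libraries lay above the FSL vehicle mean of 84.5 CPM, and all 3 non-responder libraries lay below it. The difference between responders and non-responders had a log2 fold change of 0.43 and did not pass over all genes (edgeR quasi-likelihood, adjusted p = 0.992). The FSL vehicle libraries themselves ran from 58.7 to 112 CPM, a range that holds every library of both LAC groups. Without FSL vehicle 1 the log2 fold change of non-responders against FSL vehicle went from -0.19 to 0.061.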

How the results depend on the processing

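No member passed an adjusted p of 0.05 under any alternative, in any of the 4 comparisons (smallest adjusted p = 0.275 over 360 values). Of these values 316 kept their direction and 44 reversed. Scaling, filter, DESeq2, limma-voom and fits of the compared groups reversed 0.

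Leaving out FRL vehicle 2 and responder 1 together reversed 10 values. In FSL against FRL vehicle they were Prox1 (-0.11), C1ql2 (-0.36) and C1ql3 (-0.076), in responders against FSL vehicle Prox1 (0.32), C1ql2 (0.34) and Neurod1 (0.11), and in responders against non-responders Prox1 (0.25), C1ql2 (0.031), Neurod1 (0.049) and Neurod2 (0.26). With the other granule genes as covariate, non-responders against FSL vehicle had -0.31 for Prox1, -0.14 for C1ql2 and -0.079 for Neurod1, and responders against non-responders 0.067 for Neurod2. The replicate block turned Neurod2 to 0.0018 in that comparison and changed no call of a member. The cause was not tested.

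With 1 library left out at a time, 16 of 24 fold changes reversed at least 1 time, with 7 reversals of 12 values without responder 1, 3 of 6 without FRL vehicle 2, 6 of 18 without FSL vehicle 1 and 3 of 18 without FSL vehicle 2. In FSL against FRL vehicle the ranges were -0.11 to 0.99 for Prox1, -0.36 to 0.82 for C1ql2, -0.16 to 0.34 for C1ql3 and -0.40 to 0.054 for Neurod2. In responders against FSL vehicle they were -0.77 to 0.32 for Prox1, -0.77 to 0.34 for C1ql2, -0.26 to 0.23 for Calb1, -0.47 to 0.15 for Neurod1 and -0.14 to 0.46 for Neurod2. In non-responders against FSL vehicle they were -0.19 to 0.53 for Prox1, -0.39 to 0.061 for C1ql3 and -0.14 to 0.30 for Neurod1. In responders against non-responders they were -0.83 to 0.25 for Prox1, -1.07 to 0.030 for C1ql2, -0.53 to 0.047 for Neurod1 and -0.34 to 0.26 for Neurod2.

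Over all genes, the 8 calls of FSL against FRL vehicle became 168 with DESeq2, 5 with limma-voom, 4 with the covariate, 4 with the replicate block, 2 in the compared groups only, 2 without FRL vehicle 2 and responder 1, and 2 to 271 with 1 library left out (271 without FSL vehicle 1). The 0 calls of responders against FSL vehicle became 186 with DESeq2 and 0 to 349 with 1 left out (349 without FSL vehicle 1), and those of non-responders against FSL vehicle 2 with DESeq2.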

Other observations

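After the parting of Prox1 and C1ql2 from the other members had been seen, the genes most like the mean of these 2 were listed by the same measure. They were Lrrc10b, Abcb1b, Nhlh1, Shisa6, Ntf3, Pdyn, Chst9, Tanc1, Calml4 and Pxdn, at differences of 0.28 to 0.63 log2 units against a median of 1.28 over 10172 genes. Lrrc10b was low in FRL vehicle 2 (2.0 CPM) and responder 1 (1.47 CPM) and reached 11.8 CPM or more in the other libraries. Abcb1b, a P-glycoprotein transporter gene, stood at 1.87 and 0.858 CPM there and at 14.1 CPM or more elsewhere. Shisa6, an auxiliary protein of AMPA receptors, had 4.27 and 3.8 CPM against at least 9.29 CPM. Ntf3, the neurotrophin-3 gene, had 2.53 and 2.21 CPM against at least 7.48 CPM, and Tanc1, a postsynaptic scaffold gene, 56.4 and 50.4 CPM against at least 106 CPM. Nhlh1, a helix-loop-helix factor, stood at 0.667 CPM in FRL vehicle 2 and under the floor of 3 counts in responder 1, with a mean of 10.7 CPM over all libraries.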
